A study of Homo sapiens with 9 samples.

Results

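The genes described here were 44 interferon-stimulated genes, taken from a list of symbols and matched to array probes through the RefSeq accession of each probe. Of these 44 genes, 43 had at least 1 such probe (52 probes in all), and IFI27 had none. The scanner software marks each spot whose signal is well above background. A gene was tested where a probe carried this mark on all 3 arrays of any group, which left 37 of the 44 genes among 16082 named genes tested on the whole array. With its brightest tested probe, 33 of the 37 were well above background on all 9 arrays.

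HEK293 cells, which stem from human embryonic kidney and grow as an established line, had been infected with retrovirus carrying 1 of 2 short hairpin RNAs against SmcHD1, a structural maintenance of chromosomes protein that takes part in gene silencing. Cells with shRNA 3 (KD3) and cells with shRNA 4 (KD4) were compared with cells that carried the control shRNA NC5 (CTL), with 3 arrays in each of the 3 groups. All 3 groups had gone through viral infection and puromycin selection and grew as stable populations with no further treatment, so that no group was exposed to added interferon and no uninfected group was measured. The methods call the arrays biological triplicates but do not state separate infections, and p-values here measure the spread between these arrays.

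Type I and type III interferons bind receptors that activate JAK kinases, which phosphorylate transcription factors of the STAT family. STAT2 and IRF9 are part of a complex that enters the nucleus and binds the interferon-stimulated response element (ISRE) in the promoters of its target genes. The products of those genes sense viral nucleic acid, block entry or release of virus, shut down translation and raise antigen presentation, and many of them are also expressed at a basal level in cells that have met no virus. Interferon-gamma acts through a second element, the gamma-activated sequence (GAS).

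The promoters of the listed genes held the core of the first element far more often than promoters in general. In the RefSeq windows of assembly GRCh38.p14, which run from 250 bases before a start site to 50 bases after it, the core GAAANNGAAA, searched on both strands, was present in 3.57% of 35116 windows. It was present in 30 of the 47 windows (63.8%) that belonged to 36 of the 44 genes, and in at least 1 window of 26 of those 36 genes. The GAS core TTCNNNGAA was present in 7.66% of all windows and in 27.7% of those of the listed genes. The stretches below hold every ISRE core match that lay wholly before the start site, in capitals, with 15 bases on each side. The first 4 belong to genes that were lower in knock-down cells, and ISG15 and IFIT1 are shown because they hold the same core and were not called. All are written 5′ to 3′ on the strand of the gene, and in IFIT1 the core matched the opposite strand.
BST2: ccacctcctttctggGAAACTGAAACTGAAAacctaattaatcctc
IFITM1: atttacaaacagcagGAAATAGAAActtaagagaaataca
IFI44L: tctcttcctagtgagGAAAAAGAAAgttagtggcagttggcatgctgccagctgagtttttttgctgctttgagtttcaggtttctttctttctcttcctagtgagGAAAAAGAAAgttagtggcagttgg
DDX60: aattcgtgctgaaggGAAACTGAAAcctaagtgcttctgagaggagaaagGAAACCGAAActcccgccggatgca
ISG15: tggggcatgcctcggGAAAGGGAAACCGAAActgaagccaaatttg
IFIT1: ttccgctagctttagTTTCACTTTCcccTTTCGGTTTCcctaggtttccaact

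These stretches lie at chr19:17405730-17405775 (minus strand) for BST2, chr11:313985-314024 (plus) for IFITM1, chr1:78620269-78620399 (plus) for IFI44L, chr4:168318781-168318855 (minus) for DDX60, chr1:1013369-1013414 (plus) for ISG15 and chr10:89392492-89392544 (plus) for IFIT1. The 2 matches of BST2 overlapped, as did the 2 of ISG15. Neither of the 2 windows of IFI16 held the ISRE core. Among tested genes with a promoter entry, the core was present in 4 of the 6 windows (66.7%) of genes called lower in either knock-down and in 20 of the 30 windows (66.7%) of the others, so that its presence did not separate them. The GAS core was present in 3 of the 6 windows (50%) of the genes called lower and in 5 of the 30 (16.7%) of the others. The windows of the genes called lower held a median of 2.5 CpG dinucleotides. The median was 16 in the other tested genes, 4 in those not tested, 9 in all listed genes and 14 in all promoters. The 6 windows belonged to 5 genes, with 2 from IFI16 and none from TRIM22, and neither difference was tested.

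Per array, 75.1% to 79.8% of probes were well above background, the processed signal had a median of 82.19 to 117.6, and no spot was saturated. The targeted transcript was checked first. SMCHD1 had a mean normalized log2 signal of 11.26 ± 0.0942 (SD, n = 3) in CTL, 10.29 ± 0.122 in KD3 and 9.73 ± 0.0895 in KD4. This is 51% and 34.6% of the CTL signal, with limma adjusted p-values of 0.00021 and 1.8e-05, and the direct difference of KD4 from KD3 was -0.56 (adjusted p = 0.0195). That difference no longer passed without KD3 replicate 1 or 3 or without any 1 KD4 array (-0.59 to -0.51, adjusted p 0.0571 to 0.0697), nor by the methods' t-test after adjustment (0.184).

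Genes that were up-regulated or down-regulated had to pass 2 criteria, a Benjamini-Hochberg adjusted p under 0.05 in the limma fit across all tested probes and a fold difference of at least 1.8, and are referred to as called. In KD3, 3 of the 37 interferon-stimulated genes were called lower (BST2, IFITM1 and IFI44L) and 0 higher, where 3.14% of all named genes tested were called lower and 1.29% higher. In KD4, 6 were called lower (BST2, IFITM1, IFI44L, DDX60, IFI16 and TRIM22) and 0 higher, where 4.13% of all genes were called lower and 1.46% higher. At an unadjusted p under 0.05, regardless of fold, 20 of the 37 differed in KD3 and 19 in KD4, where 39.1% and 46.7% of all genes did. The genes called in both knock-downs numbered 3 lower and 0 higher, against 2.4% and 0.902% of all genes. KD3 and KD4 were set against the same 3 CTL arrays, so that a chance deviation of those arrays enters both comparisons. The arrays lay on 2 slides, each with arrays of all 3 groups. Within a slide the genes called in KD3 differed from CTL by -1.96 to -1.09 and those called in KD4 by -2.29 to -0.37 on the log2 scale.

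Most of the interferon-stimulated genes moved little. Their median log2 fold change came to -0.17 (KD3) and -0.13 (KD4), and that of all named genes to -0.0145 and 0.00217. By the adjusted p alone, 10 genes were lower and 2 higher in KD3 (14.8% and 10.4% of all genes), and 11 were lower and 6 higher in KD4 (19.8% and 14.7% of all genes). In both knock-downs together, 8 were lower and 2 higher by the adjusted p, against 12.1% and 7.92% of all genes. The 95% interval of the difference lay wholly within a 1.8-fold change for 26 of the 37 in KD3 and for 24 in KD4, where 87.1% and 84.3% of all genes had such an interval. All 6 knock-down arrays lay below all 3 CTL arrays for 12 of the 37 genes (18.8% of all genes did so), and above them for 5 (14.5% of all genes).

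**Figure D1:**
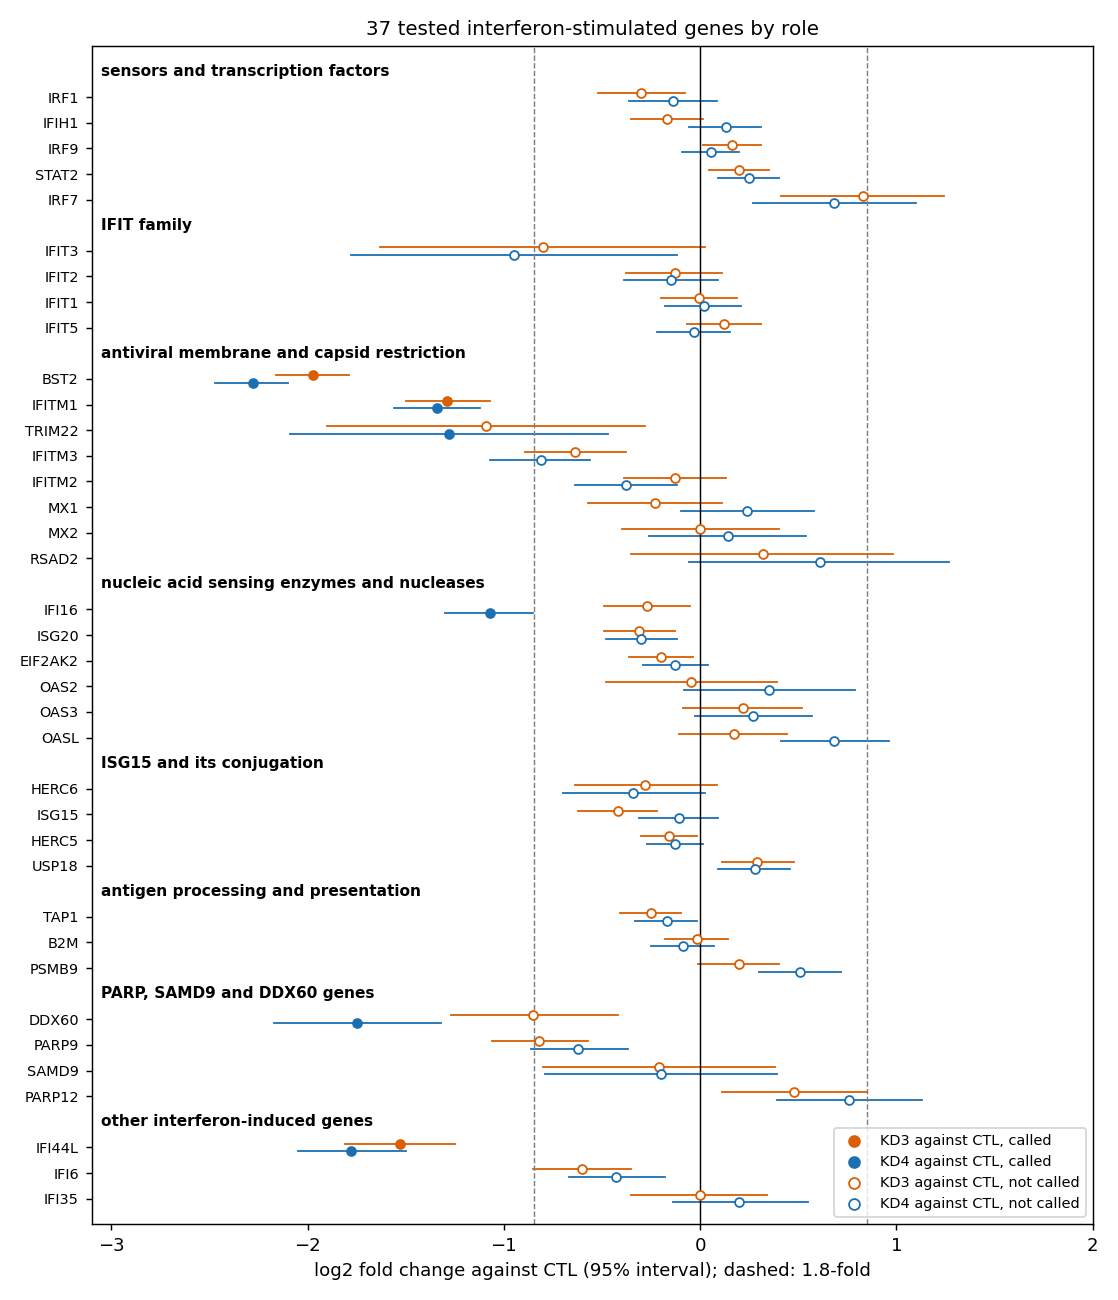
Log2 fold change against CTL of the 37 tested interferon-stimulated genes, grouped by role, with 95% intervals from limma; orange is KD3, blue is KD4, and filled points passed both the adjusted p and the 1.8-fold threshold (dashed lines). Filled points are on the left side alone, 3 in KD3 and 6 in KD4. Of these 9, 5 lie in the group of antiviral membrane and capsid restriction and belong to 3 genes. TRIM22 is among them and entered the test through the CTL arrays alone. The IFIT family and the sensors and transcription factors hold none. The groups were chosen with earlier results of these data known.

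The largest decrease among the listed genes in both knock-downs was that of BST2, or tetherin, a membrane protein that holds budding virus at the cell surface. Its normalized log2 signal was 8.94, 8.88 and 9.13 on the CTL arrays, 7.04, 7.05 and 6.93 on the KD3 arrays and 6.67, 6.70 and 6.73 on the KD4 arrays. The 3 groups did not overlap, and each knock-down stayed within a narrow band. BST2 was down-regulated 3.93-fold in KD3 (log2 fold change -1.97, SE 0.0812, limma adjusted p = 4.6e-06) and 4.87-fold in KD4 (-2.28, adjusted p = 1.3e-06). A second probe that the study names as BST2, but that has no RefSeq match, was also lower in both knock-downs. That probe gave log2 fold changes of -2.09 and -2.24.

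IFITM1, a transmembrane protein that restricts fusion of viruses at the cell surface, was also called in both knock-downs. Its log2 signal was 11.73, 11.38 and 11.50 in CTL, 10.21, 10.35 and 10.20 in KD3, and 10.23, 10.21 and 10.16 in KD4. The knock-down groups overlapped each other and lay more than 1 log2 unit below the lowest CTL array. IFITM1 changed by -1.29 on the log2 scale in KD3 (limma adjusted p = 7.4e-05) and -1.34 in KD4 (4.6e-05), and a second probe gave -1.32 and -1.37. Its paralog IFITM3, which acts in endosomes, was lower by the adjusted p alone, by 1.56-fold in KD3 (-0.64, adjusted p = 0.005) and 1.76-fold in KD4 (-0.81, adjusted p = 0.00118). IFITM2, the third member of the cluster, differed in KD4 (-0.38, adjusted p = 0.0384) and not in KD3 (-0.13, adjusted p = 0.486). The 3 genes are close paralogs, and how far their probes cross-hybridise was not tested.

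IFI44L, a cytoplasmic protein of the IFI44 family whose function is less well known, was the remaining gene called in both. Its log2 signal was 6.57, 6.83 and 6.43 in CTL, 5.09, 5.10 and 5.05 in KD3, and 4.82, 5.02 and 4.66 in KD4. All knock-down arrays lay below all CTL arrays, and the KD3 arrays barely differed among themselves. The decrease was 2.88-fold in KD3 (-1.53, SE 0.122, limma adjusted p = 0.0001) and 3.42-fold in KD4 (-1.78, adjusted p = 4e-05). With normexp background correction it changed by -0.76 in KD3, short of the fold threshold, and by the methods' t-test its adjusted p in KD3 was 0.0861. Its neighbour and paralog IFI44 was too dim to enter the test, with a signal well above background on 2 of the 3 CTL arrays and 0 of the 6 knock-down arrays. IFI44 read 3.59, 3.40 and 3.81 in CTL, 1.20, 1.76 and 2.41 in KD3, and 2.62, 1.87 and 1.26 in KD4. Against a floor set at the lowest signal well above background on an array, or at the probe's own signal where higher, IFI44 was at least 2.27-fold lower in KD3 and at least 2.28-fold lower in KD4. In the fit without a filter on dim probes its adjusted p by limma was 0.0242 and 0.0238.

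**Figure D2:**
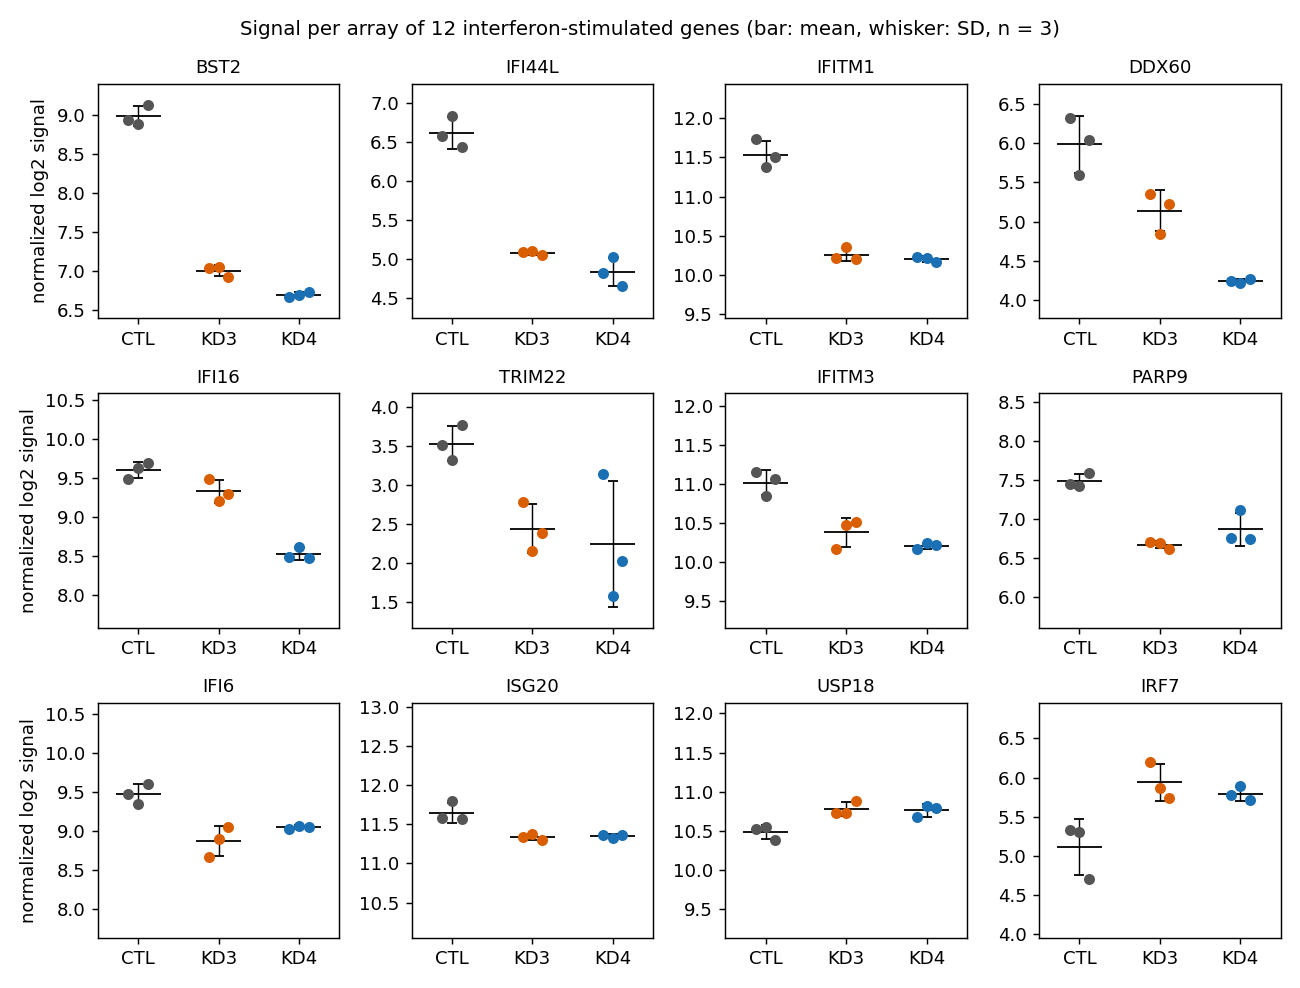
Normalized log2 signal on each array for the 12 interferon-stimulated genes that were called in any comparison or differed in both knock-downs by the adjusted p; points are arrays, bars are group means and whiskers the SD (n = 3), and each panel has its own y range. BST2, IFI44L and IFITM1 drop in both knock-downs, DDX60 steps down from CTL to KD3 to KD4, and IFI16 drops in KD4 with KD3 close to CTL.

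DDX60, IFI16 and TRIM22 were called in KD4 and not in KD3. DDX60 is a helicase that promotes signalling from RIG-I-like receptors. Its log2 signal was 6.32, 5.60 and 6.04 in CTL, 5.35, 4.84 and 5.23 in KD3, and 4.24, 4.21 and 4.27 in KD4. The 3 groups did not overlap, and the KD4 arrays were tighter than those of CTL and KD3. The decrease in KD4 was 3.36-fold (log2 fold change -1.75, limma adjusted p = 0.00035), while that in KD3 passed the adjusted p and fell just short of 1.8-fold (-0.85, adjusted p = 0.014). It reached the fold threshold in KD3 without KD3 replicate 1 (-0.95), without KD3 replicate 3 (-0.89) or without CTL replicate 2 (-1.04). With normexp background correction the log2 fold change in KD4 was -0.69, and by the methods' t-test the adjusted p in KD4 was 0.0885.

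IFI16, a nuclear sensor of DNA, was lowered in KD4. Its log2 signal was 9.48, 9.63 and 9.69 in CTL, 9.49, 9.20 and 9.29 in KD3, and 8.49, 8.62 and 8.47 in KD4. The KD4 arrays stood apart from the other 6, and KD3 overlapped CTL. The KD4 signal was 47.5% of that in CTL (-1.07, limma adjusted p = 0.00015) and the KD3 signal 82.8% of it (-0.27, adjusted p = 0.0858, 95% interval -0.49 to -0.0501).

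TRIM22, a ubiquitin ligase that restricts viral transcription, was near the detection limit, with a signal well above background on all 3 CTL arrays and 0 of the 6 knock-down arrays. Its log2 signal was 3.51, 3.32 and 3.77 in CTL, 2.78, 2.16 and 2.39 in KD3, and 3.14, 1.58 and 2.03 in KD4. Every knock-down array lay below every CTL array, although KD4 replicate 1 came close to the lowest of them. Within slide 1 the difference of KD4 from CTL was -1.74, and within slide 2 it was -0.37. Against the floor TRIM22 was at least 2.03-fold lower in KD3 and at least 1.93-fold lower in KD4, with limma adjusted p-values of 0.0645 and 0.0278. The call in KD4 was lost without KD4 replicate 2 (-0.94), KD4 replicate 3 (-1.17), CTL replicate 1 (-1.29) or CTL replicate 3 (-1.16). It was also lost without the filter on dim probes (adjusted p = 0.053), in the fit of KD4 and CTL alone (0.0529), by the methods' t-test (0.245) and with normexp (-0.22). It was made in KD3 (-1.09) without KD4 replicate 1 or 2.

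IFITM3, PARP9, IFI6 and ISG20 were lower in both knock-downs by the adjusted p and short of the fold threshold. PARP9, an ADP-ribosyltransferase that works with the ubiquitin ligase DTX3L, had log2 signals of 7.45, 7.42 and 7.59 in CTL, 6.70, 6.69 and 6.62 in KD3, and 6.75, 7.11 and 6.74 in KD4. It was 1.76-fold lower in KD3 (-0.82, limma adjusted p = 0.00134) and 1.54-fold lower in KD4 (-0.62, adjusted p = 0.00363). PARP9 reached the fold threshold in KD3 without CTL replicate 2 (-0.85), as did IFITM3 in KD4 (-0.90). IFI6, a mitochondrial and endoplasmic reticulum protein that opposes apoptosis, read 9.47, 9.34 and 9.60 in CTL, 8.67, 8.90 and 9.05 in KD3, and 9.02, 9.07 and 9.05 in KD4. The log2 fold change of IFI6 was -0.60 (adjusted p = 0.00577) and -0.43 (adjusted p = 0.0192). ISG20, an exonuclease of RNA, was lower by 1.24-fold and 1.23-fold (adjusted p = 0.0248 and 0.023 by limma). Leaving out single arrays raised the adjusted p of IFI6 in KD4 to at most 0.0649 and that of ISG20 to at most 0.0773 in KD3 and 0.073 in KD4. By the methods' t-test after adjustment, IFITM3, PARP9, IFI6 and ISG20 passed in neither knock-down (adjusted p 0.0512 to 0.207).

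IRF7 and USP18 were higher in both knock-downs by the adjusted p. IRF7, the transcription factor that drives expression of type I interferons, had log2 signals of 5.33, 5.30 and 4.70 in CTL, 6.20, 5.87 and 5.74 in KD3, and 5.78, 5.89 and 5.71 in KD4. All 6 knock-down arrays lay above all CTL arrays, with CTL replicate 3 the lowest. The increase was 1.77-fold in KD3 (0.83, limma adjusted p = 0.0143) and 1.61-fold in KD4 (0.68, adjusted p = 0.0236). IRF7 was called higher in KD3 without KD3 replicate 2 (0.86), KD3 replicate 3 (0.93), CTL replicate 1 (0.94) or CTL replicate 2 (0.92), and its adjusted p in KD4 rose to at most 0.0733 without a KD4 array. With normexp background correction IRF7 changed by 0.34 in KD3 and 0.23 in KD4, the latter with a limma adjusted p of 0.054. By the methods' t-test its adjusted p was 0.185 in KD3 and 0.203 in KD4, and its unadjusted p in KD4 was 0.0725. USP18, the protease that removes ISG15 from proteins and dampens receptor signalling, was higher by 1.22-fold and 1.21-fold (adjusted p = 0.0366 and 0.0339). The call on USP18 by the adjusted p held in KD3 in 1 of 9 fits with an array left out (adjusted p 0.0486 to 0.114) and in KD4 in 5 of 9 (0.0359 to 0.108). USP18 did not pass by the methods' t-test after adjustment (0.133 in KD3 and 0.0973 in KD4).

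The listed genes are given next by role, in small groups that were chosen with earlier results of these data known. No test was run between the groups. Of the 8 genes grouped under antiviral membrane and capsid restriction, 2 were called lower in KD3 and 3 in KD4, and 0 were higher by the adjusted p in either. The 3 in KD4 include TRIM22, which restricts viral transcription instead and entered the test through the CTL arrays alone. The GTPases MX1 and MX2, which trap incoming capsids, and RSAD2 (viperin), which makes a chain-terminating nucleotide, belong to this group and passed no test. MX1 differed from CTL by -0.23 and 0.24 on the log2 scale, and RSAD2 by 0.32 and 0.61. RSAD2 read 2.58, 3.20 and 4.01 on the CTL arrays, so that its interval in KD4 ran from -0.0577 to 1.27. RSAD2 was well above background on 1 CTL, 2 KD3 and 3 KD4 arrays, so that it entered the test through the KD4 arrays alone. Without CTL replicate 3 RSAD2 was called higher in KD4 (0.98, limma adjusted p = 0.00689).

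None of the 4 tested genes of the IFIT family, which bind viral RNA lacking host cap modifications, passed the adjusted p in either knock-down. IFIT1 read 10.12, 10.15 and 9.92 in CTL and lay within 9.98 to 10.16 on all knock-down arrays. The 95% interval of its log2 fold change ran from -0.20 to 0.19 for KD3 and from -0.18 to 0.21 for KD4. IFIT3 was lower in both by its mean (-0.80, limma adjusted p = 0.164, and -0.95, adjusted p = 0.085), with KD4 arrays spread between 3.29 and 5.08. For IFIT2 the brightest probe gave -0.13 and -0.15. A second, dimmer probe gave -0.96 and -1.60, and neither probe passed the adjusted p. The second probe varied between CTL arrays from 3.88 to 5.85 and entered the test through the CTL arrays alone.

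Among the sensors and transcription factors other than IRF7, STAT2, a subunit of the ISRE-binding complex, was higher in KD4 (0.25, limma adjusted p = 0.0268) and read 0.20 in KD3 (adjusted p = 0.0731). IRF9, its DNA-binding partner, had log2 fold changes of 0.16 and 0.05, and the RNA sensor IFIH1 of -0.17 and 0.13. IRF1, a first-wave target of interferon-gamma, had -0.30 and -0.14. These 3 did not pass the adjusted p. The oligoadenylate synthetases, which activate RNase L, were represented by OAS2, OAS3 and the related OASL. OASL was higher in KD4 (0.68, adjusted p = 0.00373) and read 0.17 in KD3, while OAS2 and OAS3 passed no test. The kinase EIF2AK2 (PKR), which halts translation, lay below CTL on all 6 knock-down arrays with differences of only -0.20 and -0.13 (adjusted p = 0.0888 and 0.229).

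ISG15, the ubiquitin-like protein whose conjugation gives this group its name, was lower in KD3 (10.63, 10.61 and 10.67 against 10.98, 11.17 and 11.01 in CTL). On the log2 scale ISG15 differed by -0.42 (limma adjusted p = 0.0117), and in KD4 by -0.11 (adjusted p = 0.394). The ligases HERC5 and HERC6, which attach it or resemble the enzyme that does, passed no test. In antigen processing, the peptide transporter TAP1 was lower in KD3 (-0.25, adjusted p = 0.0322) and the immunoproteasome subunit PSMB9, whose gene lies next to it, was higher in KD4 (0.51, adjusted p = 0.00429). B2M, the light chain of MHC class I, had -0.02 and -0.09. PARP12, which blocks translation of viral RNA, was higher in KD4 (0.76, adjusted p = 0.00926) and read 0.48 in KD3 (adjusted p = 0.074). PARP12 was called higher in KD4 with scaling to the 75th percentile (0.96) or without KD4 replicate 2 (0.89). Its signal was well above background on 2 CTL, 3 KD3 and 3 KD4 arrays. PARP12 therefore entered the test through the knock-down arrays alone.

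OAS1, PSMB8, PARP14, SAMD9L, XAF1 and IFI44 had probes that were not well above background on every array of any group, so that they were not tested. PSMB8 read between 2.84 and 3.77 over the 9 arrays. XAF1, a pro-apoptotic factor, read 3.99 with 1 of its 2 probes on KD3 replicate 1 and at most 1.54 on the other 8 arrays.

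The direct comparison of KD4 with KD3 used no CTL arrays in its difference. Of the 37 genes, DDX60 was called lower in KD4 and 0 genes were called higher, where 0.267% of all genes were called lower and 0.28% higher. IFI16 was lower by the adjusted p with a fold short of the threshold, and 0 were higher, where the adjusted p alone took in 1.89% of all genes as lower and 1.36% as higher. The log2 difference was -0.90 for DDX60 (limma adjusted p = 0.0449) and -0.80 for IFI16 (adjusted p = 0.0074), and in both genes every KD4 array lay below every KD3 array. The KD4 arrays also lay wholly below the KD3 arrays for BST2 (-0.31, adjusted p = 0.0888), IRF9, IFIT5 and IFI44L. They lay wholly above them for IFIH1, IRF1, RSAD2, MX1, OASL, ISG15, PSMB9 and PARP9. None of these differences passed the adjusted p, and the share of all genes with such a separation was not counted. The difference in DDX60 lost its call without any 1 of the KD3 or KD4 arrays or without CTL replicate 3 (from -1.05 to -0.80, adjusted p up to 0.151). For 32 of the 37 genes the 95% interval lay within a 1.8-fold difference between the knock-downs, as it did for 93% of all genes. The difference in SMCHD1 between the knock-downs is given above, and its part in these differences was not tested.

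**Figure D3:**
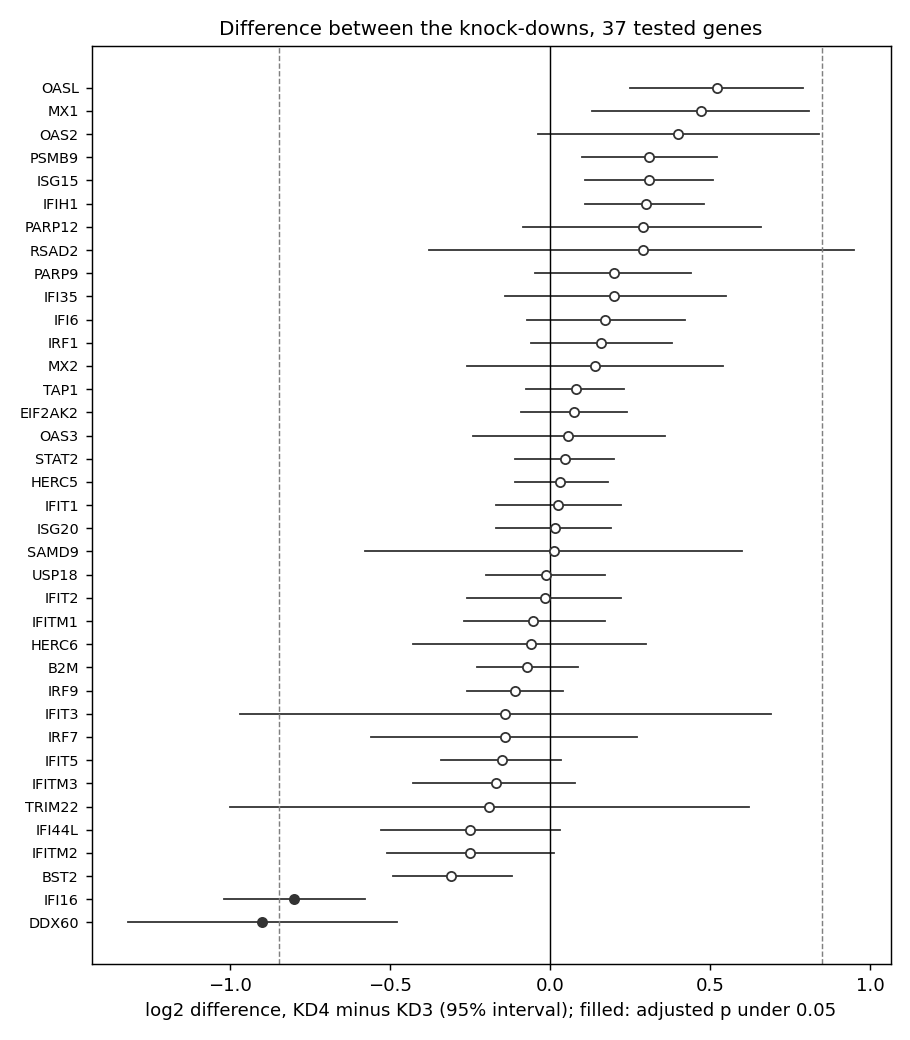
Log2 difference between KD4 and KD3 for the 37 tested interferon-stimulated genes with 95% intervals, sorted by size; filled points had an adjusted p under 0.05 and dashed lines mark 1.8-fold. DDX60 and IFI16 lie at the lower end at -0.90 and -0.80, and the other 35 genes lie between -0.31 and 0.52.

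The pathway around these genes was read from a further list of 76 genes, 61 of them tested. In KD3, 1 of the 61 was called higher and 3 lower, and in KD4 0 were higher and 3 lower. The genes called lower were 4.92% of the 61 in each knock-down, near the shares of 3.14% and 4.13% over all genes. By the adjusted p alone, 10 of the 61 were higher and 11 lower in KD3 (10.4% and 14.8% of all genes). In KD4, 12 were higher and 11 lower (14.7% and 19.8% of all genes). Of 12 interferon ligand genes, IFNA1 and IFNA5 had no probe with a RefSeq match. The others apart from IFNL1 and IFNL2 were too dim to be tested. Neither of these 2 was called. IFNL2 was well above background on all 9 arrays and was higher in KD4 by the limma adjusted p (0.28, adjusted p = 0.0442). The 9 receptor and kinase genes were all tested and none was called, with log2 fold changes between -0.23 and 0.36 in KD3 and between -0.11 and 0.30 in KD4.

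Of the genes called in this wider list, IRF5, a transcription factor downstream of Toll-like receptors, was higher in KD3 (8.12, 8.03 and 7.97 against 7.06, 7.09 and 7.17 in CTL). IRF5 differed from CTL by 0.93 (limma adjusted p = 9.1e-05), and in KD4 by 0.36 (adjusted p = 0.00719), with a difference between the knock-downs of -0.57 (adjusted p = 0.00798). TLR3, the endosomal receptor for double-stranded RNA, was lower in both, by 1.84-fold in KD3 and 1.8-fold in KD4 (adjusted p = 0.00519 and 0.00452). The cytosolic RNA sensor RIGI passed no test. Its adaptor MAVS did not differ by its brightest probe (-0.04 in each knock-down), while another of its 3 tested probes was lower by the adjusted p (-0.24 and -0.35).

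Genes of MHC class II, which present peptides to helper T cells and respond to interferon-gamma through CIITA, were lower in both knock-downs for 5 of the 9 tested by the adjusted p, and 1 (HLA-DOA) was higher, where 12.1% and 7.92% of all genes were lower and higher in both. HLA-DPB1 read 9.76, 9.63 and 9.97 in CTL, 8.53, 8.63 and 8.43 in KD3, and 8.46, 8.36 and 8.49 in KD4. HLA-DQA1 read 5.94, 5.89 and 5.70 in CTL, 4.44, 4.18 and 4.67 in KD3, and 4.07, 4.37 and 3.56 in KD4. These were the class II genes called, with log2 fold changes of -1.26 and -1.35 for HLA-DPB1 and -1.41 and -1.84 for HLA-DQA1 (limma adjusted p from 5.6e-05 to 0.00201). A second HLA-DQA1 probe gave -1.37 and -0.75, the latter with a limma adjusted p of 0.0586. That probe was well above background on 3 CTL arrays, 1 KD3 array and 1 KD4 array. It entered the test through the CTL arrays alone. HLA-DPA1, HLA-DQB1 and HLA-DRB1 were lower to a smaller extent, and CIITA had -0.08 and -0.10. The class II genes HLA-DRA and CD74 were not tested, as their probes were too dim. Of 17 genes of MHC class I and peptide loading, 0 were called in either knock-down, where 3.14% and 4.13% of all genes were called lower. By the limma adjusted p alone, 3 were lower and 1 higher in KD3 (14.8% and 10.4% of all genes). In KD4, 4 were lower and 1 higher (19.8% and 14.7% of all genes). ERAP2 (-0.67 and -0.39) and HLA-F (-0.35 and -0.31) were lower in both, and PSMB10 (0.34 and 0.30) was higher in both. HLA genes share sequence and vary between alleles, so that the source of the signal on each probe is uncertain.

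**Figure D4:**
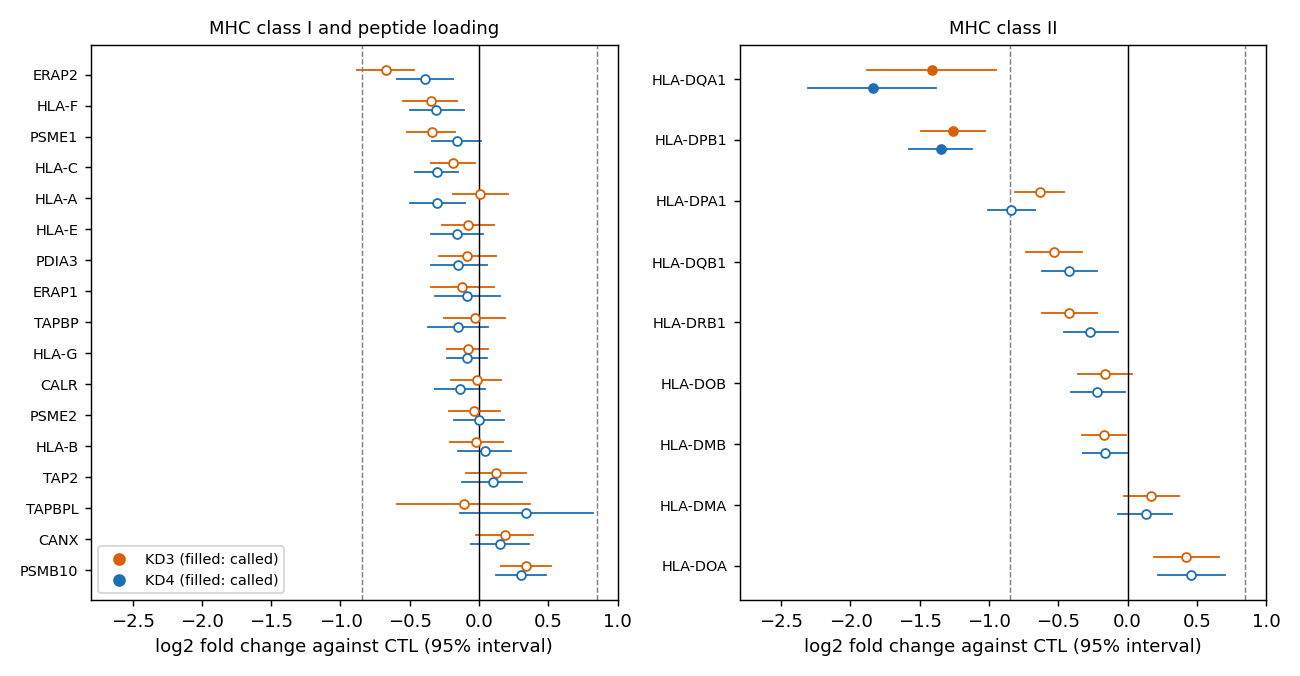
Log2 fold change against CTL with 95% intervals of the tested genes of MHC class I and peptide loading (left) and MHC class II (right); orange is KD3, blue is KD4, filled points were called, and dashed lines mark 1.8-fold. HLA-DQA1 and HLA-DPB1 lie beyond 1.8-fold on the low side in both knock-downs, and no class I gene does.

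Markers of the cell line and of other cell types were read in the same fit. All 8 markers of HEK293 cells were detected, of which PAX2, a renal transcription factor (log2 fold change -2.41 and -2.65), and NEFM, a neurofilament (-1.21 and -1.24), were called lower in both knock-downs. A second PAX2 probe read -0.01 and 0.06 and passed no test. SALL1 was higher in both by the adjusted p (0.32 and 0.45), as was KRT18 in KD4 (0.34). Leukocytes are rich in interferon-stimulated and class II transcripts, and the leukocyte markers PTPRC, CD3E and CD14 were tested. Their probes were well above background on all 9 arrays, their log2 fold changes lay between -0.12 and 0.40, none passed the adjusted p, and their part in the results above was not tested. Of the 7 markers of endothelium and fibroblasts, 5 were tested, of which VWF was lower in both knock-downs by the adjusted p (-0.82 and -0.69) and COL1A1 in KD3 (-0.37).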

How the data were processed

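Total RNA of 9 samples (KD3, KD4 and CTL, 3 each, grouped by the sample titles) was labelled with Cy3 and hybridised to one-color Agilent human arrays. The authors deposited the scanner output of every array, made with Agilent Feature Extraction 10.10.1.1. It lists spot intensity, including a processed green signal with background subtracted and spatial trend removed. They also deposited a table of log2 values, quantile normalized over the arrays in GeneSpring, which was used as an alternative. Background subtraction makes low signals noisy, and quantile normalization hides a shift shared by most genes.

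Here, control spots and the 260 to 634 spots with outlier flags (of 58717 on an array) were removed, the log2 processed signal was quantile normalized over 9 arrays, repeated spots were averaged, and a missing value removed 21 of 42405 probes. A probe counted as well above background on an array where the marked spots were not outnumbered by unmarked ones, and 32276 probes were tested. Replicate arrays correlated at 0.995 or more. Probes were named through their RefSeq accession (25422 probes) with a gene table of GRCh38.p14, and a gene was read from its brightest tested probe. All arrays entered a single fit in limma 3.58.1 (lmFit and eBayes, R 4.3.3) with a mean per group and Benjamini-Hochberg adjustment over all tested probes, which had been tested on simulated data. The number of arrays limits the precision.

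The genes named were those called in any comparison or past the adjusted p in both knock-downs in the same direction. Others are given by role. The members, role groups and pathway lists were chosen with earlier results of these data known. The methods' t-test on the same values was an alternative, beside other scalings, background correction, filters, blocks for replicate number or slide, and leaving out each array. Each of the 2 slides held arrays of all 3 groups. Promoter sequences came from RefSeq (GRCh38.p14). Results for some genes are not reported here.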

Additional observations from a re-analysis of the deposited data

Results flagged for a closer look

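The difference between the knock-downs was itself tested for each gene, and passed the limma adjusted p for 2 interferon-stimulated genes. IFI16 had a log2 difference of -0.80 between KD4 and KD3, which stayed between -0.86 and -0.72 when single arrays were left out (adjusted p 0.0102 to 0.0377), and did not pass by the methods' t-test after adjustment (0.177). It reached 1.8-fold without KD3 replicate 2 (-0.86) or KD4 replicate 2 (-0.85). Within slide 1 the difference was -0.66 and within slide 2 it was -0.90. DDX60 had a difference of -0.90, and -0.60 and -1.05 within the slides. Its adjusted p passed in 2 of 9 fits with an array left out (without CTL replicate 1 or 2).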

How the results depend on the processing

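None of the 12 named genes reversed direction against CTL under the alternatives run, and their 10 calls were kept in 172 of 199 values and lost in 27, while values without a call gained one in 22 of 319. The count of genes called was 3 in KD3, 6 in KD4, 1 between KD4 and KD3, and 3 in both knock-downs. With scaling to the 75th percentile it was 6 in KD3, 7 in KD4 (PARP12 among them, higher), 0 between the knock-downs and 5 in both. The methods' t-test with adjustment gave 1 in KD3 and 3 in KD4, 0 between the knock-downs and 1 in both, and no longer called IFITM1 (adjusted p = 0.0585 and 0.057), IFI44L in KD3 (0.0861), or DDX60 (0.0885) and TRIM22 (0.245) in KD4. With the slide as a block the counts were 5 in KD3, 0 between the knock-downs and 5 in both. Normexp background correction and the fit without a filter on dim probes each gave 0 between the knock-downs, and normexp gave 2 in KD3, 4 in KD4 and 2 in both. Without a fold threshold the counts were 12, 17, 2 and 10. When each array was left out in turn they ranged from 3 to 6 in KD3 (5 without KD3 replicate 3, 6 without CTL replicate 2), from 5 to 7 in KD4, from 0 to 1 between the knock-downs and from 3 to 4 in both. The deviations of samples with the same replicate number had small correlations (-0.0775 to 0.143), which were positive for KD4 and CTL at every number. All arrays of replicate 1 lay on slide 2 and all of replicate 2 on slide 1. With 3 arrays per group these correlations cannot decide whether the numbers pair the samples. With the replicate number as a block the counts were 4, 6, 1 and 4, and SMCHD1 had log2 fold changes of -0.97 and -1.53 and a difference of -0.56 that no longer passed (adjusted p = 0.0692). Signal over background limits TRIM22, IFI44, RSAD2 and PARP12, and 3 arrays per group limit all values.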
